A study of Mus musculus with 24 samples.

Results

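The genes described here encode subunits of the AMPA and NMDA receptors, the main ion channels through which glutamate excites neurons. The set was given as a list of 9 genes of the 18240 in the deposited table: the AMPA receptor subunits Gria1, Gria2, Gria3 and Gria4, and the NMDA receptor subunits Grin1, Grin2a, Grin2b, Grin2d and Grin3a. They were followed in prefrontal cortex from C57BL/6J mice at postnatal day 40, by bulk sequencing of polyadenylated RNA. There were 24 libraries in 4 arms of 6, each with 3 females and 3 males: wild-type mice on vehicle (WT vehicle), and mice carrying 1 Dyrk1a allele named I48X (HT) on vehicle, fluoxetine (an antidepressant that blocks serotonin reuptake) or lithium (used as a mood stabiliser). No arm combined the wild-type genotype with a drug. The sources used here give no dose, route or length of treatment. Nor do the labels tie libraries to individual animals, so a p-value here reflects the spread among libraries, part of which may be technical.

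AMPA receptors are tetramers that open within a fraction of a millisecond of glutamate binding and carry most of the fast excitatory current in cortex. The Gria2 subunit keeps calcium out of the channel once its messenger RNA has been edited. NMDA receptors need the obligatory Grin1 subunit, glutamate, a co-agonist (glycine or D-serine) and depolarisation to open, and admit calcium that drives synaptic plasticity. Their Grin2 partners set how slowly the channel closes, and in forebrain Grin2a joins Grin2b during postnatal maturation.

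The 4 AMPA subunit genes are paralogs, and a single codon in the pore is the site at which the Gria2 messenger RNA is edited. The stretches below show why reads can still be assigned to each gene and where editing acts. They are 45 bases of the coding strand, 5′ to 3′, from GRCm38 with GENCODE M21 exons, and the capitals mark the codon of the Q/R site (glutamine to arginine) in the pore-lining segment.
Gria1: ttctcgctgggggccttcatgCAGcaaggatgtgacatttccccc
Gria2: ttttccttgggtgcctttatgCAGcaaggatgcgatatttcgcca
Gria3: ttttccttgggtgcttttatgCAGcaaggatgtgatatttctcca
Gria4: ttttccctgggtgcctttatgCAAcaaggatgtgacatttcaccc
They lie in coding exons at chr11:57243073-57243117 (plus strand), chr3:80706890-80706934 (minus), chrX:41610244-41610288 (plus) and chr9:4464116-4464160 (minus). Each pair shares 36 to 42 of the 45 bases, with 42 for Gria2 and Gria3 and 36 for Gria1 against either of those. All 4 codons spell glutamine in the genome. In Gria2 the enzyme encoded by Adarb1 is known to edit this codon in RNA so that the protein carries arginine. A table of counts per gene does not show editing.

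Even in such conserved genes, few stretches of 31 bases were shared with any other gene: 0.282% of those in Gria1 transcripts, 1.36% in Gria2, 1.45% in Gria3 and 0.975% in Gria4. The NMDA genes shared 0% (Grin3a) to 0.293% (Grin1), except Grin2a. There 12.1% of the stretches also occur elsewhere, and the processed pseudogene Gm7328 shares the most. By this measure alone the Grin2a level is the least certain of the 9, and the effect on its count was not tested. Exons of Gria2 overlap Gm25749, those of Gria3 overlap Gm22413 and those of Gria4 overlap Gm23811. Exons of Grin1 overlap Grin1os, those of Grin2b overlap Gm14329, Gm22892 and Gm26653, and those of Grin2d overlap Gm45441. These overlaps were sought without regard to strand. The library kit named in the labels keeps the strand, but the sources used here do not give the counting setting.

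Depth, in recovered reads, ranged from 24133344 to 35940460. No 2 libraries agreed within sampling noise, since chi-square per gene was at least 4.53 where noise gives about 1. Dyrk1a stood at 2200 ± 90.8 normalised reads (SD, n = 6) in WT vehicle and 2355 ± 61.2 in HT vehicle (log2 difference 0.10 ± 0.04 SE, 95% interval 0.02 to 0.18, limma adjusted p = 1). It was also higher in HT fluoxetine (2476 ± 97.5) and HT lithium (2447 ± 113). Their log2 differences from WT vehicle were 0.17 ± 0.04 and 0.15 ± 0.04. limma called neither, though their p-values ranked 10 and 8 among the 16825 genes tested. An allele can end translation early while its RNA persists, so the genotype labels are not checked by this level. Whether this holds for I48X was not tested. Markers of cortical excitatory neurons were present in every library, as the tissue label requires, with a summed level of 35860 to 66823 over 7 genes. Markers of olfactory bulb mitral and tufted cells (Cdhr1, Doc2g, Eomes) were present as well and differed widely. Their mean log2 level, called the bulb score here, ran from 4.19 to 12.29. In 6 libraries it was 11.73 to 12.29, and these are called bulb-high: HT fluoxetine female 1 and male 1, HT lithium male 1, HT vehicle female 2 and male 3, and WT vehicle female 2. The other 18 stood at 4.19 to 10.69. The arms did not separate by this score, with means of 9.3 ± 2.04 in WT vehicle, 8.15 ± 2.96 in HT vehicle, 9.23 ± 2.83 in HT fluoxetine and 8.31 ± 2.88 in HT lithium. The 6 lithium libraries are all in the batch labelled P40_L2, with 1 other library, HT fluoxetine female 3. In bulk tissue, fewer cells of a type and less RNA per cell cannot be told apart.

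All 9 subunit genes were well above the limit for testing, a mean of 10 normalised reads. Levels of different genes are compared per kilobase of the longest annotated transcript. Grin1 was highest, at 4121 ± 241 (SD over 24 libraries), and stood above Gria2 in 24 of 24. Gria2 (2027 ± 99.8), Gria1 (1938 ± 184) and Gria3 (1740 ± 271) came next and overlapped: Gria2 was above Gria1 in 16 libraries, and Gria1 above Gria3 in 16. Grin2b (781 ± 105) and Gria4 (656 ± 72.6) overlapped too, with Grin2b higher in 17 libraries. Grin2a (394 ± 69.9) was below Gria4 in 24 of 24 libraries. Grin3a (174 ± 12.6), which encodes a subunit that lowers calcium entry, was above Grin2d (111 ± 32.6) in 22. Grin2d, known for inhibitory interneurons and slow channel closing, was thus the lowest. The order depends on the length used. Per kilobase of coding sequence Gria2 led, at 7934 ± 391, above Grin1 (6124 ± 358) in 24 of 24 libraries.

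Between HT and WT mice on vehicle the subunit transcripts did not differ beyond the spread between libraries. Among the AMPA genes, Gria1, a subunit central to activity-driven receptor insertion, ran from 9995 through a median of 11037 to 13210 normalised reads in WT vehicle. In HT vehicle it ran from 9436 through 10454 to 11361. The HT libraries sat lower on average, by -0.10 ± 0.07 on the log2 scale (± SE), but the ranges overlapped. Gria2 ran from 19506 through 21263 to 21869 in WT vehicle and from 19354 through 20699 to 22286 in HT vehicle. It had the tightest spread of the 9 genes, 1.2-fold between the highest and the lowest of all 24 libraries. Its difference was -0.02 ± 0.05, with a 95% interval of -0.14 to 0.09.

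Gria3, an X-linked subunit gene, ran from 7619 through 9731 to 10186 in WT vehicle and from 7370 through 8985 to 10551 in HT vehicle. The lowest library of the WT arm and the lowest pair of the HT arm were bulb-high. Gria4, a subunit of fast channels that is prominent in interneurons, ran from 3312 through 3536 to 4097 in WT vehicle and from 2939 through 3665 to 4170 in HT vehicle. Their differences were -0.08 ± 0.15 and -0.005 ± 0.10.

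Of the NMDA genes, Grin1 ran from 16925 through 18054 to 18387 in WT vehicle and from 15678 through 17627 to 18942 in HT vehicle. Grin2a ran from 4951 through 6233 to 6751 and from 4586 through 6092 to 6741. Grin2b ran from 17283 through 20019 to 21196 and from 16115 through 19106 to 21081. In each of these 3 genes the HT range enclosed most of the WT range. Grin2d ran from 507.4 through 564.1 to 937.6 in WT vehicle and from 417.5 through 521.5 to 850.2 in HT vehicle, and its highest libraries were bulb-high. Grin3a ran from 1295 through 1312 to 1408 and from 1177 through 1314 to 1448. The log2 differences were -0.03 ± 0.06 for Grin1, -0.07 ± 0.15 for Grin2a, -0.06 ± 0.11 for Grin2b, -0.10 ± 0.24 for Grin2d and -0.03 ± 0.06 for Grin3a.

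**Figure D1:**
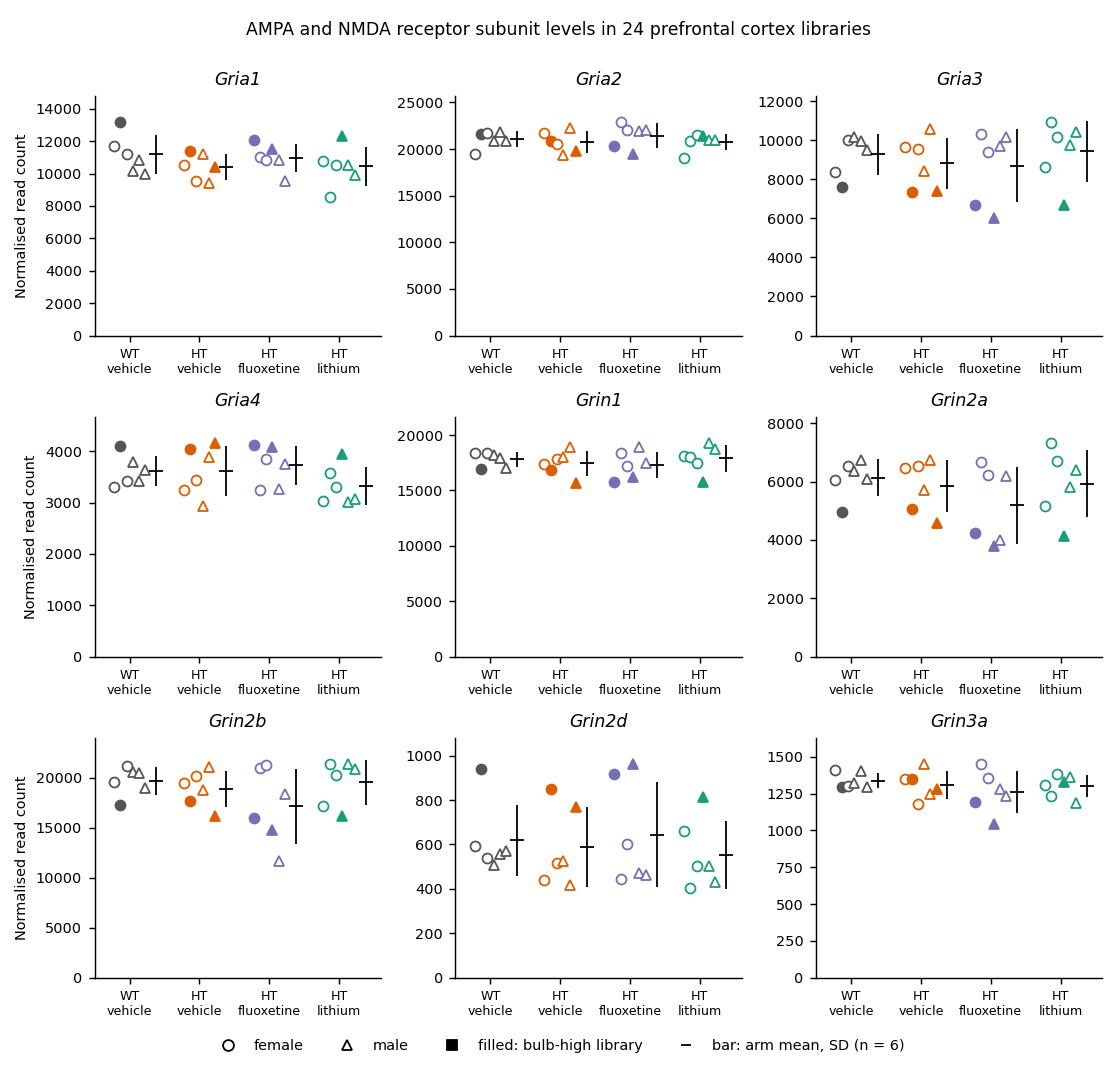
Normalised read counts of the 9 subunit genes (vertical axes, linear from 0) in the 4 arms, with 1 point per library, circles for females, triangles for males and filled symbols for the 6 bulb-high libraries; black bars are the mean and SD of each arm (n = 6). The 4 arms overlap for every gene, and the filled symbols are low for Gria3 and Grin1 and high for Grin2d.

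limma called 0 of the 9 genes in this comparison at an adjusted p under 0.05, against 0% of the 16825 genes tested, and 0 of the 9 had an unadjusted p under 0.05. edgeR and DESeq2 on recovered reads called 0 of them too. All 9 differences were negative, with a median of -0.06, against -0.002 over all genes. Levels of these genes were correlated within groups, so the 9 signs are not independent. With the bulb score added to the fit, Gria4 (0.03) and Grin2d (0.07) were positive. Each difference without that score was smaller than the within-group SD of its gene. Without the 6 bulb-high libraries, Gria2, Gria3, Grin1 and Grin2a were within 0.005 of 0 on the other side. In that setting Grin2d went from -0.10 to -0.23 and Gria4 from -0.005 to -0.05. Grin2b (-0.02), Gria1 and Grin3a stayed negative there. With the 4 libraries high in Drd2 or Ttr left out instead, Gria4 stood at 0.07.

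Fluoxetine and lithium were each compared with vehicle in HT mice; both comparisons, and the one with wild type above, share the HT vehicle libraries. With fluoxetine, Grin2b ran from 11675 through 17124 to 21239 normalised reads and Grin2a from 3791 through 5202 to 6686. The values of both NMDA subunit genes reached below every HT vehicle library and otherwise overlapped that arm. The log2 differences from HT vehicle were -0.16 ± 0.11 for Grin2b and -0.20 ± 0.15 for Grin2a. Grin2b was at -0.08 without HT fluoxetine male 2. Grin2a was at -0.10 without HT fluoxetine female 1, a bulb-high library, and at -0.15 without male 2. The other 7 genes differed by -0.06 (Grin3a) to 0.11 (Grin2d), with Gria1 at 0.08 ± 0.07, Gria2 at 0.05 ± 0.05, Gria3 at -0.04 ± 0.15, Gria4 at 0.05 ± 0.10 and Grin1 at -0.01 ± 0.06. limma called 0 of 9, against 0.0119% of all genes, with 0 at an unadjusted p under 0.05 and adjusted p-values of 0.983 to 0.992. edgeR and DESeq2 called 0 of 9.

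With lithium, Gria4 ran from 3020 through 3192 to 3945 and stood -0.12 ± 0.10 from HT vehicle, while Gria3 ran from 6664 through 9955 to 10954 and stood 0.09 ± 0.15 from it. Both overlapped the vehicle range. Without the 4 libraries high in Drd2 or Ttr, Gria4 stood at -0.23 and Gria3 at 0.11, and neither was called. The remaining 7 genes lay between -0.08 (Grin2d) and 0.05 (Grin2b). limma called 0 of 9, again against 0.0119% of all genes, with 0 at an unadjusted p under 0.05 and an adjusted p of 1 for each. edgeR and DESeq2 called 0. Lithium and its batch cannot be told apart in these libraries. A batch term, which rests on HT fluoxetine female 3 alone, turned Gria3 to -0.09, Grin2a from 0.01 to -0.22 and Grin2b from 0.05 to -0.17, with an adjusted p of 1 for each.

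The treated arms were also set against wild type, and against each other. limma called 0 of 9 subunit genes for HT fluoxetine against WT vehicle, where it called 0% of all genes, 0 of 9 for HT lithium against WT vehicle (0%) and 0 of 9 for HT lithium against HT fluoxetine (0.0238%). None of these 27 differences had an unadjusted p under 0.05, and edgeR and DESeq2 called 0 members in each. The lowest p belonged to Grin2b in HT fluoxetine against WT vehicle, at -0.23 ± 0.11 (limma adjusted p = 0.964), and Grin2a stood at -0.27 ± 0.15 there (adjusted p = 0.964). Over the 54 combinations of a gene with a pair of arms, the ranges overlapped in 54. The share of all genes whose ranges overlap was not counted, so this number is not particular to these receptors.

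Adding the bulb score to the fit narrowed the intervals of 8 of the 9 genes. That of Grin3a hardly changed, with an SE of 0.0636 before and 0.0631 to 0.064 after. In HT against WT vehicle, Gria3 then stood at -0.17 ± 0.08 with a 95% interval of -0.33 to -0.01 (limma adjusted p = 0.527). Grin2a stood at -0.17 ± 0.08 (limma adjusted p = 0.551), and Grin2d moved to the other side, 0.07 ± 0.10. Only Gria3 had an unadjusted p under 0.05, which is 1 of 9 genes where 1541 of all 16825 had one, a share near the background. limma called 0 of 9, against 0.0297% of all genes. The Gria3 value was -0.12 without the 6 bulb-high libraries. With the covariate on a linear scale Gria3 and Grin2a were both at -0.07, and Grin2d was again negative, at -0.11.

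Cell type markers differed in the same fit. Of 7 markers of cortical excitatory neurons 6 were lower in HT vehicle, with a median of -0.28 and 3 at an unadjusted p under 0.05, and 5 of 5 astrocyte markers were higher, with a median of 0.13 and 3 at that p. limma called none of these 12, and the share of all genes at that p is given above. Summed levels overlapped, at 39630 to 64189 in WT vehicle and 42281 to 64347 in HT vehicle for the excitatory markers, and at 12935 to 17959 and 13750 to 19607 for the astrocyte markers, with no marker at 0. The part of these markers in the Gria3 and Grin2a values was not tested.

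In HT fluoxetine against WT vehicle with the covariate, Grin2a stood at -0.28 ± 0.08 (limma adjusted p = 0.293) and Grin2b at -0.23 ± 0.08 (adjusted p = 0.418). These were the only 2 of 9 genes at an unadjusted p under 0.05, where 1624 of all 16825 had one, and 0 were called, against 0.0416% of all genes. Without HT fluoxetine male 2 they were -0.22 and -0.14. In this fit 6 of 7 cortical excitatory markers were lower (median -0.14) and 5 of 5 astrocyte markers higher (median 0.17), and their part in the result was not tested. With the covariate limma called 0 of 9 for HT fluoxetine against HT vehicle (0.0238% of all genes), HT lithium against HT vehicle (0.0119%), HT lithium against WT vehicle (0.0238%) and HT lithium against HT fluoxetine (0.0713%). None of the 9 had an unadjusted p under 0.05 in those 4 comparisons, and edgeR and DESeq2 with the covariate called 0 in all 6.

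**Figure D2:**
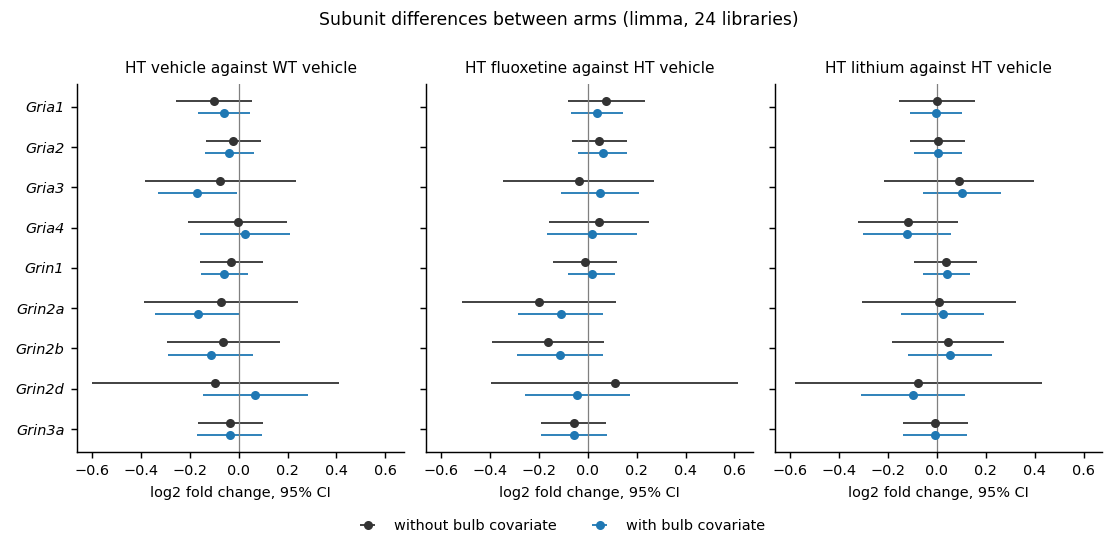
log2 fold changes of the 9 subunit genes (horizontal axis, with 95% confidence intervals from limma over 24 libraries) for 3 comparisons of arms, without (dark) and with (blue) the bulb score as a covariate. Nearly all intervals cross 0; Gria3 in HT against WT vehicle with the covariate, at -0.33 to -0.01, does not, and its adjusted p is 0.527.

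What the subunit transcripts did follow was the bulb score. Within groups, Grin2d rose by 0.14 ± 0.02 log2 units per unit of the score (± SE, limma adjusted p = 1.2e-06) and Gria1 by 0.03 ± 0.01 (0.000904). Gria3 fell by 0.08 ± 0.01 (adjusted p = 1.75e-05), Grin2a fell by 0.08 ± 0.01 (3.25e-05), Grin2b fell by 0.05 ± 0.01 (0.00446) and Grin1 fell by 0.02 ± 0.01 (0.0058). Gria4 (0.03 ± 0.01, adjusted p = 0.0906), Gria2 (-0.01 ± 0.01, 0.118) and Grin3a (-0.002 ± 0.01, 0.857) did not pass. Thus 6 of 9 subunit genes were called, 2 higher and 4 lower, where limma called 50.7% of all genes, 25.2% higher and 25.5% lower. That share is near the background, so following the score was not particular to these receptors. edgeR and DESeq2 also called 6.

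Set out by library, Grin2d stood at 769.9 through a median of 884.5 to 963.5 in the 6 bulb-high libraries and at 402 through 506.1 to 658.8 in the other 18. The sets do not overlap, and their medians differ 1.75-fold. Gria4 was likewise apart, at 3945 through 4095 to 4170 against 2939 through 3363 to 3890. Gria3 was apart on the low side, at 6022 through 7018 to 7619 against 8362 through 9843 to 10954, a ratio of medians of 0.713. Grin1 was also lower in every bulb-high library, at 15678 through 16009 to 16925 against 17050 through 18089 to 19314. Gria1, Gria2, Grin2b and Grin3a overlapped between the sets. Grin2a overlapped through 1 library, HT fluoxetine male 2 (3982), since the highest bulb-high value was 5066 and the next lowest of the others 5172. The libraries were divided by the score itself, so these ranges carry no test. Other glutamate genes, such as Cacng2 and Grip2, were apart too, while others, such as Pick1, overlapped. The share of all genes that part in this way was not counted.

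**Figure D3:**
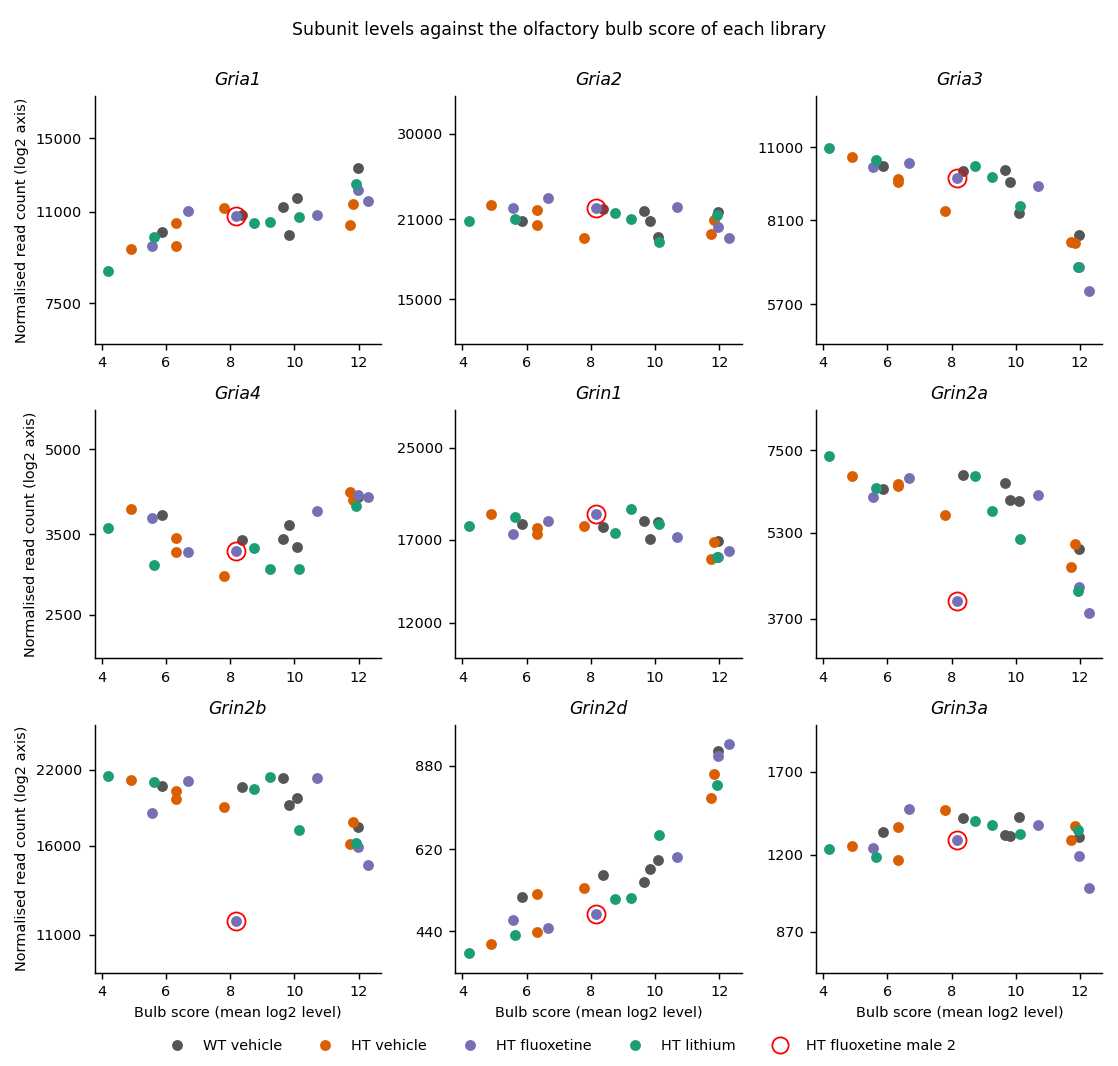
Normalised read counts of the 9 subunit genes (vertical axes, log2 scale, the same span in each panel) against the bulb score of the library (horizontal axis, mean log2 level of Cdhr1, Doc2g and Eomes), with 1 point per library coloured by arm and HT fluoxetine male 2 circled in red. Grin2d is higher and Gria3 lower towards the right, mostly between the 18 libraries up to 10.69 and the 6 from 11.73, while the circled library, at a score of 8.17, has 11675 reads of Grin2b, the lowest of the 24.

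The bulb score took up 83% of the within-group variance of Grin2d, 74.9% for Gria3, 71.7% for Grin2a, 59.7% for Gria1, 52.3% for Grin1 and 45.2% for Grin2b. The median over 12610 genes with a mean of at least 100 was 35.6%. Gria2 (24.2%), Gria4 (19.4%) and Grin3a (0.354%) were below that median. Without the 6 bulb-high libraries the slopes of Gria1 and Grin2b were nearly the same size, while those of Grin1, Gria3 and Grin2d were smaller. Among these 18 libraries, limma called Grin2d (0.09, adjusted p = 0.00552) and Gria3 (-0.04, adjusted p = 0.0401). Grin2a (-0.06, adjusted p = 0.0557), Gria1 (0.04, 0.0727), Grin2b (-0.04, 0.187) and Grin1 (-0.005, 0.743) no longer passed, and the uncalled Gria4 and Grin3a took the other sign, at -0.03 (0.334) and 0.02 (0.376). Within batch P40_L1 the same 6 genes as over both batches were called, with Grin2d at 0.15 and Gria3 at -0.09.

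Cell type markers moved with the score as well. Of 7 markers of cortical excitatory neurons 7 fell with it, by a median slope of -0.14, and 5 of 5 further bulb markers rose, by a median of 0.36. Of 7 inhibitory neuron markers 3 rose and 4 fell. The level of the vesicular glutamate transporter Slc17a7, one of the excitatory markers, was 28907 to 34417 in the bulb-high libraries and 40481 to 53751 in the others. The part of these markers in the subunit slopes was not tested.

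Ratios between subunit transcripts compare the genes within each library, and receptor protein was not measured. A fixed effect of transcript length cancels when a ratio is compared between arms, but an effect that differs between libraries does not. The ratio of Grin2a to Grin2b, which rises as forebrain receptors mature, was 0.311 ± 0.0147 (SD, n = 6) in WT vehicle, 0.309 ± 0.0202 in HT vehicle, 0.302 ± 0.0359 in HT fluoxetine and 0.302 ± 0.0334 in HT lithium. The arms differed by less than their spread, although Grin2a and Grin2b themselves varied 1.93-fold and 1.83-fold over the 24 libraries. Gria1 to Gria2 was 0.531 ± 0.058, 0.503 ± 0.0564, 0.514 ± 0.0648 and 0.503 ± 0.0616 in the same order. Gria3 to Gria2 was 0.440 ± 0.0473, 0.424 ± 0.0492, 0.403 ± 0.0659 and 0.454 ± 0.0743.

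Of 18 tests (6 ratios in HT against WT vehicle and in each drug against HT vehicle), none passed. The two-sided exact permutation test over 924 arrangements gave adjusted p-values of 0.991 throughout, and the smallest p this design allows is 0.00216. The lowest unadjusted exact p was 0.245, for Gria4 to Gria2 in lithium (log2 difference -0.12). For Grin2a to Grin2b in fluoxetine against HT vehicle the log2 difference was -0.04. It was -0.07 without HT fluoxetine male 2, the library described below (exact permutation p = 0.379). With each ratio corrected for its slope on the bulb score, Gria3 to Gria2 in HT against WT vehicle stood at -0.13 (exact permutation p = 0.0173, adjusted p = 0.312) and the other 17 had p-values of 0.147 to 0.959. The ratio of Grin2d to Grin1 was 0.049 to 0.059 in the bulb-high libraries and 0.022 to 0.036 in the others, and that of Gria3 to Gria2 was 0.31 to 0.375 against 0.425 to 0.526.

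One library stood apart for Grin2a and Grin2b. HT fluoxetine male 2 had 11675 reads of Grin2b and 3982 of Grin2a at a bulb score of 8.17, while its other 7 subunit genes were inside the range of HT vehicle. Measured from a line on the bulb score over the 24 libraries, Grin2b deviated by -0.70 and Grin2a by -0.56 on the log2 scale. Their transcripts are the longest of the set, up to 24060 bases for Grin2b and 14634 for Grin2a, against 4276 to 10371 for the other 7. In that library the 175 genes whose longest transcript is over 12 kilobases had a median deviation of -0.35, with 93.7% below 0. In the other 23 libraries this median was -0.098 to 0.105. Genes of 8 to 12 kilobases had a median of -0.13 in HT fluoxetine male 2, and those of 4 to 8 kilobases 0.02. The part of transcript length in its Grin2a and Grin2b levels was not tested.

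**Figure D4:**
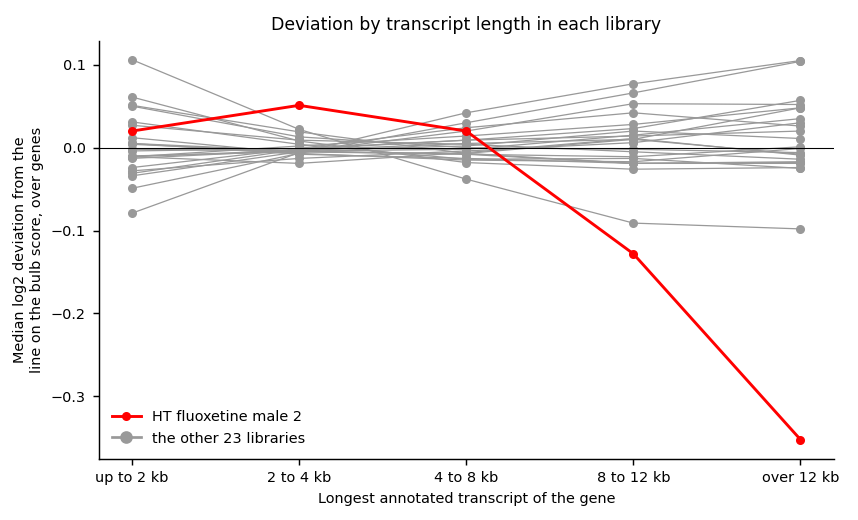
Median log2 deviation of gene levels from a line on the bulb score (vertical axis), by the length of the longest annotated transcript (horizontal axis, 5 classes), with 1 line per library. HT fluoxetine male 2 (red) reaches -0.35 for transcripts over 12 kilobases, where the other 23 libraries (grey) lie between -0.098 and 0.105.

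After the bulb score was taken out, deviations within groups went together for some pairs of subunit genes and opposite ways for others. Of 36 pairs, 5 had a Pearson r over 0.5 and 5 had one under -0.5. The highest Pearson r of these deviations among the 36 pairs was 0.891, for Grin2a with Grin2b over 24 libraries, and it was 0.913 without HT fluoxetine male 2. Gria3 and Grin2d went opposite ways, at -0.823 (-0.791 without that library), and Gria4 and Grin1 likewise, at -0.673. Other pairs depended on that library. Without it, Gria3 with Grin2b went from 0.24 to 0.828, Gria3 with Grin2a from 0.562 to 0.904, Grin2a with Grin2d from -0.464 to -0.833 and Grin2b with Grin2d from -0.129 to -0.728. The 24 libraries share batches and depth, and these values are descriptions only.

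Among 12609 genes with a mean of at least 100, genes most like each subunit gene were named by the same measure. For Gria3 they were the receptor phosphatase Ptprj (r = 0.96), the calcium/calmodulin kinase kinase Camkk2 (0.957) and the heparan sulfate enzyme Ndst3 (0.952). For Gria4 they were Stxbp6 (0.965), the histone deacetylase Hdac9 (0.95) and the potassium channel Kcnb2 (0.948). For Grin2d they were the cAMP-activated exchange factor Rapgef3 (0.935), the interneuron transcription factor Sp9 (0.931) and the semaphorin Sema4g (0.93).

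The genes closest to Grin2b included the presynaptic scaffold Pclo (r = 0.953) and Vps13b (0.91), whose longest transcripts are 20084 and 13757 bases. Grin2a was closest to Arfgef3 (0.927), the potassium channel Kcnma1 (0.895) and Grin2b. The longest transcript of each of these, Grin2b included, is over 12 kilobases. The genes closest to Gria1 included Hs6st2 (0.916) and Ksr1 (0.866). Grin1 was closest to the membrane skeleton gene Sptan1 (0.928), Med24 (0.927) and Ube2o (0.923), Gria2 to Alkbh8 (0.899), Ubxn2a (0.856) and Fam169a (0.851), and Grin3a to the transcription factor Prox1 (0.875), Rprd1a (0.853) and Synrg (0.846).

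A list of 59 related glutamate genes set the subunits in context, of which 57 were tested: other receptor subunits, auxiliary subunits, anchoring and trafficking proteins, kinases and RNA editing enzymes, and genes of glutamate, glycine and D-serine supply. limma called 0 of 57 in each of the 6 comparisons of arms, with and without the bulb covariate. At an unadjusted p under 0.05 there were 0 to 4 of 57 without the covariate and 0 to 13 with it. In HT against WT vehicle 42 of 57 were negative (median -0.03), with 4 at an unadjusted p under 0.05. Those with the smallest p did not pass: the kainate receptor partner Neto2 at -0.18 ± 0.08, the AMPA receptor trafficking gene Pick1 at 0.10 ± 0.04 and the neuronal glutamate transporter Slc1a1 at -0.13 ± 0.06 (limma adjusted p = 1 for each). With fluoxetine these were the astrocyte transporter Slc1a3 (0.16 ± 0.08), the phosphatase Ptpn5 (-0.33 ± 0.20, from 3536 to 8560 reads in HT vehicle) and Pick1 (-0.07 ± 0.04). With lithium they included the synaptic pentraxin Nptx2 (0.17 ± 0.07) and the AMPA auxiliary subunit Cacng8 (0.19 ± 0.12).

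With the covariate, 13 of 57 related genes had an unadjusted p under 0.05 in HT against WT vehicle, where 1541 of all 16825 did. The smallest belonged to the NMDA subunit Grin2c (0.20 ± 0.06, limma adjusted p = 0.405), the vesicular transporter Slc17a6 (-0.25 ± 0.08, 0.425) and the AMPA auxiliary subunit Cacng2, known as stargazin (-0.18 ± 0.06, 0.43). None passed.

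On the bulb score 18 of the 57 rose and 30 fell, where 25.2% of all genes rose and 25.5% fell. The 4 risers with the smallest p were the auxiliary subunits Cacng5 (slope 0.51 ± 0.03, limma adjusted p = 3.51e-11) and Shisa6 (0.17 ± 0.02, 1.53e-06), the glycine transporter Slc6a9 (0.16 ± 0.01, 1.23e-07) and the anchoring gene Grip2 (0.20 ± 0.02, 1.68e-06). Cacng5 stood at 2234 to 3429 in the bulb-high libraries and 171.7 to 1325 in the others. Falling genes with small p-values included Cacng2 (-0.07 ± 0.01, adjusted p = 3.02e-06) and the AMPA receptor assembly gene Frrs1l (-0.09 ± 0.01, 9.92e-06). Adarb1, chosen here because its enzyme edits the Gria2 codon shown above, rose by 0.05 ± 0.01 (5.59e-05) and did not separate the arms, at 8167 ± 951 in WT vehicle and 8263 ± 848 in HT vehicle.

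**Figure D5:**
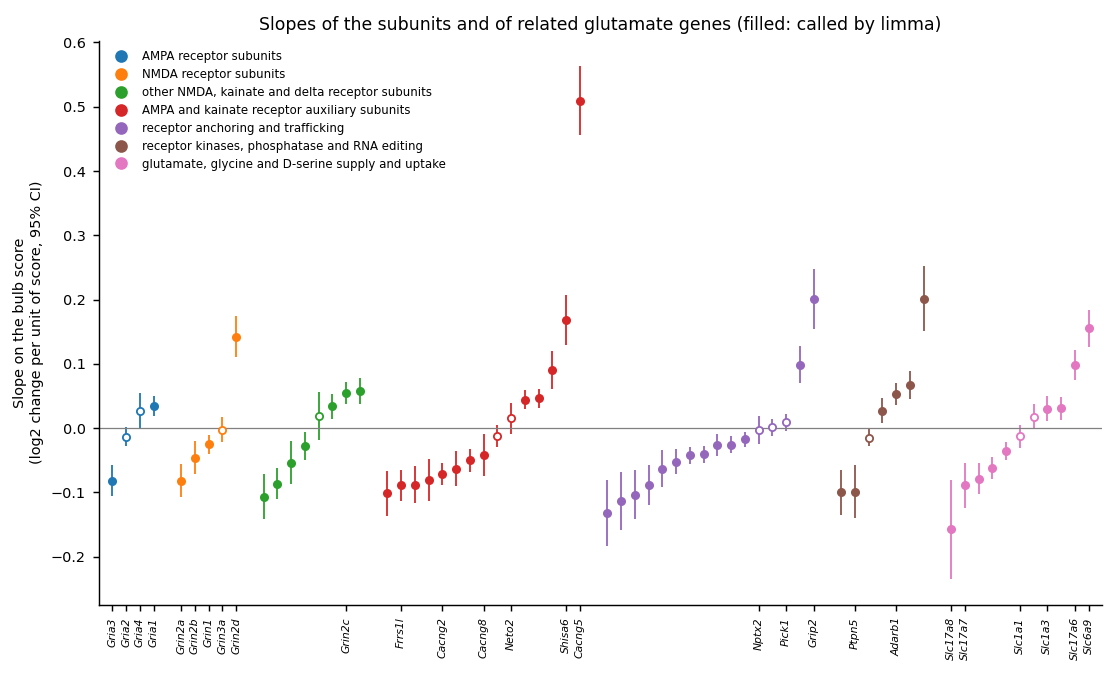
Slopes of the 9 subunit genes and 57 related genes on the bulb score (vertical axis, log2 change per unit of score, with 95% confidence intervals), grouped and coloured by list and ordered within it, with names for the genes given in the text; filled points were called by limma. Slopes of both signs occur in every list, from -0.16 for Slc17a8 to 0.51 for Cacng5.

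Sex made no difference that passed. Males against females, averaged over the arms, differed by -0.12 ± 0.11 for Grin2a, -0.10 ± 0.08 for Grin2b and -0.07 ± 0.17 for Grin2d, with the other 6 genes between -0.05 and 0.01. limma called 0 of 9, against 0.0832% of all genes, with 0 at an unadjusted p under 0.05. X-linked Gria3 stood at -0.006 ± 0.10 (95% interval -0.22 to 0.21). The difference between the sexes in each effect was tested as an interaction, and limma called 0 of 9 for HT against WT vehicle, 0 of 9 for fluoxetine and 0 of 9 for lithium, against 0% of all genes in each. The largest of these was Grin2b with fluoxetine, at -0.35 ± 0.22 (males minus females, limma adjusted p = 1), in an arm that holds HT fluoxetine male 2. No member had an unadjusted p under 0.05, and edgeR and DESeq2 called 0 in these 4 tests.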

How the data were processed

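Libraries were made with a stranded kit for polyadenylated RNA, per the labels' protocols. The authors deposited 1 table of normalised read signal. The build GRCm38 and the tools DESeq2 1.19.11, R 3.6.0 and Salmon 0.11.2 are named, with no role, per the submitters' processing notes. Within a column the values are whole multiples of what 1 read is worth, so whole reads were recovered (100% within 0.01 of a read). In HT vehicle female 2 that worth is too near 1 for an automatic check. The smallest mean in the table is 1.63, so lower genes were already left out. Symbols, lengths and coordinates came from GENCODE M21 (18227 of 18240 identifiers matched).

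The main test was limma 3.58.1 (R 4.3.3, mean-variance trend) on log2(value + 1), for 16825 genes with a mean of at least 10. It used 8 group means over 24 libraries and Benjamini-Hochberg adjustment over all genes, and was tested on simulated data. Fold changes are on that scale, which understates changes of low genes. Arm contrasts weight the sexes equally. edgeR 4.0.16 and DESeq2 1.42.0 on recovered reads, other scalings, pseudocounts, filters, batch terms and omitted libraries were alternatives. Members and gene lists were chosen with earlier results of these data known. All 9 members are named; of related genes, up to 4 called per direction, or the 3 with the smallest p where none was called; for likeness, the 3 genes with the highest r. Some genes that this rule names are not reported here. Confidence intervals are 95%.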

Additional observations from a re-analysis of the deposited data

Results flagged for a closer look

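In WT vehicle, Grin2d stood at 937.6 normalised reads in female 2, a bulb-high library, far from the next highest at 593.8 in an arm that reaches down to 507.4. The ratio of Grin2d to Grin1 in the same library was 0.05545, with the next at 0.0335. In HT lithium, Gria2 stood at 19083 in female 1, below the next lowest at 20845. The ratio of Gria3 to Gria2 in HT lithium was 0.3121 in male 1, also bulb-high, with the next at 0.4517. In each case the gap to the nearest library, divided by the range of the arm, was above 0.625, the 95% critical value for 6 samples. The 9 genes and 6 ratios in 4 arms make 60 such checks, and chance alone flags about 1 in 20.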

How the results depend on the processing

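No member was called in any comparison of arms or sexes under any alternative run. Of 4104 log2 fold changes recomputed between arms, 0 were called, 189 changed sign without being called, and the smallest adjusted p was 0.125, for Grin2a in HT fluoxetine against WT vehicle with the bulb covariate within batch P40_L1. On the bulb score 6 members were called, and 2 without the 6 bulb-high libraries, where 1051 genes were called in place of 8533. The count was 6 to 7 when any single library was left out, and 7 on a linear bulb scale or without the 2 libraries farthest from the median score. The seventh gene was Gria4 without HT lithium female 1 (adjusted p = 0.0415), HT lithium female 2 (0.0218), HT vehicle male 2 (0.0365) or those 2 libraries (0.00373).

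With the replicate block, 6 members were called on the bulb score and 0 between arms. Over 0.1 were 12 of 36 correlations between same-numbered libraries (-0.695 to 0.724): 5 of 6 in HT against WT vehicle (-0.157 to 0.591), 5 of 6 in lithium against fluoxetine (0.055 to 0.724) and 2 in the other 4 comparisons. In no comparison were all 6 over 0.1, so the numbers were not taken as pairs, and 3 of 24 libraries correlated best with their own number. Counts of all genes moved more. DESeq2 called 16 for fluoxetine against HT vehicle (limma 2), 18 for fluoxetine against WT (limma 0), 5 for lithium against WT (0) and 30 for lithium against fluoxetine (4); with the bulb covariate it called 15 for HT against WT (limma 5) and 11 to 49 in the other 5. Without the 6 bulb-high libraries and with the covariate, limma called 87 for fluoxetine against HT vehicle (4) and 127 for lithium against fluoxetine (12). The other alternatives gave 0 to 5 genes between arms without the covariate and 0 to 23 with it, and the replicate block gave 7 genes for sex (14). Omitting single libraries gave 0 to 6 genes without and 0 to 15 with the covariate between arms. Without the 4 libraries high in Drd2 or Ttr, 0 members were called between arms and 6 on the bulb score. That alternative and the linear bulb scale were chosen after seeing the data. Within-batch fits were not run for lithium, whose libraries are all in P40_L2.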
